A study of Homo sapiens with 42 samples.

Results

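RD cells are an established human rhabdomyosarcoma line, labelled here as rhabdomyosarcoma with genotype WT. The comparison covered the 6 RD samples of a series of 42 samples from 7 cancer lines. In RD, 3 biological replicates were treated for 4 h with FHT-1015, a dual inhibitor of SMARCA4 and SMARCA2, and 3 received DMSO, labelled as the negative control; the labels name no dose. All RD results come from 1 cell line. Chromatin accessibility was measured by ATAC-seq, in which a transposase cuts DNA that nucleosomes leave open, and the peaks of every sample were listed separately. The members described below were regions of 500 bp with a peak in all 3 samples of one group and in no sample of the other. There were 8904 such regions lost with FHT-1015 (1.55%) and 1347 gained (0.235%), of 574317 regions called in any RD sample and 2141943 in the whole series.

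SMARCA4 and SMARCA2 are the alternative ATPases of the BAF chromatin remodelling complexes, which slide and evict nucleosomes and keep many enhancers accessible. Rhabdomyosarcoma is a tumour of cells that express the myogenic factors MYOD1 and MYOG but do not complete differentiation into muscle. Both factors are basic helix-loop-helix proteins that bind E-box motifs, often of the form CAGCTG, at regulatory elements of muscle genes. The labels were checked against these markers. A strict peak (−log10 q of at least 5) lay within 1 kb of an end of MYOG in 3 of 3 RD DMSO samples and in no sample of the other 6 lines. MYOD1 had a strict peak at a gene end in 3 of 3 RD DMSO samples, and also in 3 of 3 DMSO samples of 22RV1 and of HCT116. MYF5, another muscle regulator, had a gene-end peak in 0 RD DMSO samples. In 92-1 and 22RV1 it had one, not strict, in 3 of 3 DMSO samples each. Of 20 muscle regulators, 13 or 14 had a strict gene-end peak in RD DMSO samples and 8 to 11 with FHT-1015. Of 28 muscle structure genes it was 14 to 16 and 5 to 10. Of 9 epithelial and 8 myeloid marker genes, 0 had a strict peak at a gene end in any of the 6 RD samples. Of 7 melanocyte markers 1 to 3 had one, of 6 prostate markers 0 to 3, and of 7 neural markers 0 or 1.

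Sequences are shown for 6 promoters at which a loss, a partial loss or no loss was seen, because sequence differed between these classes in the shares given further on. Each is the 250 bases before the transcription start from RefSeq (GRCh38.p14), written 5′ to 3′ on the strand of the gene, and capitals mark CAGCTG, an E-box, and TGANTCA, the AP-1 motif. TRIM62 (chr1:33176551-33176800, minus strand), RIPOR1 (chr16:67537212-67537461, plus strand), DIO3 (chr14:101561245-101561494, plus strand) and ITGA11 (chr15:68432164-68432413, minus strand) are the 4 promoters of highest rank in DMSO among those lost as whole intervals (a peak in 3 DMSO samples, none with FHT-1015). MYOG (chr1:203086013-203086262, minus strand) is the lineage marker, with peaks in 3 DMSO and 2 FHT-1015 samples. COQ10B (chr2:197453302-197453551, plus strand) is the promoter of highest rank among those with a peak in all 6 samples.
TRIM62: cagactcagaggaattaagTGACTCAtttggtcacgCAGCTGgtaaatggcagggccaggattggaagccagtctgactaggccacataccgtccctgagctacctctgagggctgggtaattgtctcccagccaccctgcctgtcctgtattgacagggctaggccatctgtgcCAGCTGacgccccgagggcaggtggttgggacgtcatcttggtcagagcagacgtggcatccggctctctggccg
RIPOR1: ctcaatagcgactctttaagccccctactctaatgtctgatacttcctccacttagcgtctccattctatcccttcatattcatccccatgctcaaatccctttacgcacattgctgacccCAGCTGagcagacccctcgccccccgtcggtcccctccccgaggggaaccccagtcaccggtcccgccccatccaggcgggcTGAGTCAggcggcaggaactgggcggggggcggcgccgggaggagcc
DIO3: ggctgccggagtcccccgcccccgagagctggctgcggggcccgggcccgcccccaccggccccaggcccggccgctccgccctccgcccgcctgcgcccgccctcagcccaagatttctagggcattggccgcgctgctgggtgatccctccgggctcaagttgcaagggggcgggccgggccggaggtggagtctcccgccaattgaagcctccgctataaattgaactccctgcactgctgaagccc
ITGA11: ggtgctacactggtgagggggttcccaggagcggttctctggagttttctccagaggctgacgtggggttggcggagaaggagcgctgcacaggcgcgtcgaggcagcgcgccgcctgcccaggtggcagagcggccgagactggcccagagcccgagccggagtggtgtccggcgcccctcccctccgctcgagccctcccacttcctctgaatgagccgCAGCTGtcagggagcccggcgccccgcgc
MYOG: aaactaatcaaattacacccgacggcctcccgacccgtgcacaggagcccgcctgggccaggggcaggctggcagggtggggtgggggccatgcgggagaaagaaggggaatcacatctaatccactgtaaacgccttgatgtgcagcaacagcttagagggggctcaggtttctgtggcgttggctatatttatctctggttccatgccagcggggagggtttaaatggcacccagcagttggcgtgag
COQ10B: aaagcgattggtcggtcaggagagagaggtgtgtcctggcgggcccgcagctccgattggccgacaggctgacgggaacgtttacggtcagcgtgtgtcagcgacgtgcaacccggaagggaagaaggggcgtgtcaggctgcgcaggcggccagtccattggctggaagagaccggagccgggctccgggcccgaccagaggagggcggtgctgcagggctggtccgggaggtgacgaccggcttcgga
TRIM62, a ubiquitin ligase whose window lies at a start inside the gene, had −log10 p of 20.2, 12.9 and 23.8 in the 3 DMSO lists. RIPOR1, a regulator of the GTPase RHOA, had 15.8, 18.4 and 7.63. DIO3, which inactivates thyroid hormone, had 9.94, 11.8 and 15.3, and ITGA11, a collagen-binding integrin subunit, had 9.72, 15.1 and 10.6. The 4 windows had no peak in any of the 3 FHT-1015 lists. Both motifs are in the stretches of TRIM62 and RIPOR1, CAGCTG alone is in that of ITGA11, and neither is in those of DIO3, MYOG and COQ10B.

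Strict peaks were fewer in every FHT-1015 sample than in every DMSO sample. The DMSO samples had 45201, 48752 and 41806 strict peaks and the FHT-1015 samples 20960, 13760 and 28354, so that the groups did not overlap. The mean was 45253 ± 3473 (SD, n = 3) with DMSO and 21025 ± 7297 (SD, n = 3) with FHT-1015, a difference of −1.16 on the log2 scale (exact permutation test, two-sided, p = 0.1). The smallest p that 3 against 3 samples can give is 0.1, so no single measure of these samples could pass 0.05; adjusted over the 3 measures tested this way, p was 0.1 for each. The lists give no read counts, so depth was read from the background pileup that the deposited fold and p-values imply. It was 0.817, 1.11 and 1.19 with DMSO and 1.65, 1.01 and 1.18 with FHT-1015, overlapping between groups (exact permutation p = 0.5). Pileups were also thinned to a common background, with a cut at −log10 p of at least 5 in place of the q cut. Depth and cut thus changed together, and the difference was −1.26. With FHT-1015 samples thinned to 2 times the background of the DMSO samples it was −0.48, the groups overlapped, and the exact permutation p was 0.2.

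Peaks over 1 kb from a gene end, gene bodies included, were reduced most in number. Strict peaks over 1 kb from either end of a protein-coding gene numbered 21358, 23523 and 18746 with DMSO and 5366, 2928 and 9323 with FHT-1015, the FHT-1015 mean being 27.7% of the DMSO mean. Within 1 kb of a gene end there were 23843, 25229 and 23060 with DMSO and 15594, 10832 and 19031 with FHT-1015, or 63.0% of the DMSO mean. Neither count overlapped between groups. The gene-end share of strict peaks was thus 52.7%, 51.7% and 55.2% with DMSO and 74.4%, 78.7% and 67.1% with FHT-1015, higher in each treated sample, with a difference of 20.2 percentage points (exact permutation p = 0.1). Among all deposited peaks, weak ones included, the gene-end share differed by 0.144 percentage points and the groups overlapped (exact permutation p = 1). With the 10000 strongest peaks of each sample, the mean share was 72.9% with DMSO and 80.2% with FHT-1015. That difference was 7.30 percentage points (exact permutation p = 0.1). After thinning, with the same change of cut, the difference in share was 14.2 percentage points (exact permutation p = 0.1).

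**Figure D1:**
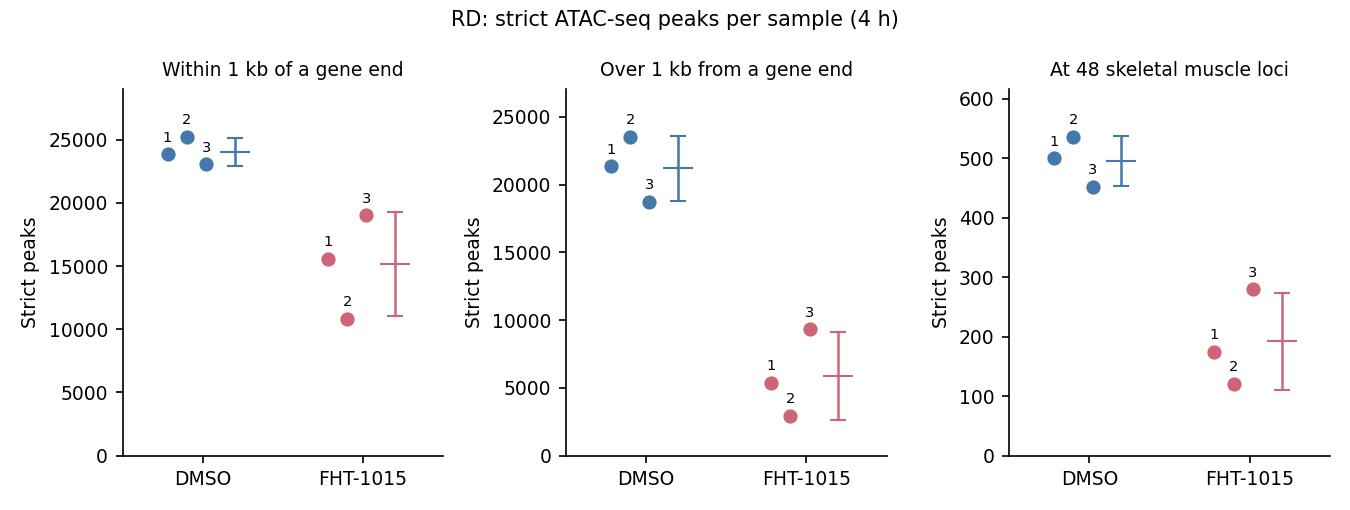
Number of strict peaks (y axis, from 0) in each of the 3 DMSO and 3 FHT-1015 samples of RD, within 1 kb of a gene end, farther than 1 kb, and at 48 skeletal muscle loci; points carry the replicate number, and the bar with whiskers is the mean ± SD. The FHT-1015 points lie below all DMSO points in each panel, and the distal counts are 27.7% of the DMSO mean against 63.0% at gene ends.

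A region was called in a sample when a peak of its deposited list overlapped it by at least 100 bp. All 3 DMSO samples shared 55840 regions, of which 8904 (15.9%) were lost, that is, called in 0 FHT-1015 samples, and 25007 were kept in all 6 samples. The other regions were called in 1 (11168) or 2 (10761) of the 3 FHT-1015 samples. In the other direction, 29364 regions were called in all 3 FHT-1015 samples, and 1347 of them (4.59%) were gained, that is, called in 0 DMSO samples. The regions nearest to the rule were more numerous than the members themselves: 26899 regions had a call in 2 DMSO and 0 FHT-1015 samples, and 18810 in 0 DMSO and 2 FHT-1015 samples.

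Not every lost region was a peak that disappeared. In 2786 of the 8904 lost regions the DMSO interval that called the region also overlapped an FHT-1015 interval, which covered less than 100 bp of the region or none of it. These are called shoulders here. In the other 6118 (11.0% of the 55840) the DMSO intervals overlapped no FHT-1015 interval, and these are called whole-interval losses. Median interval widths were 276, 278 and 272 bp with DMSO and 264, 251 and 265 bp with FHT-1015, without overlap between the groups. By the same split, 960 gained regions (3.27%) were whole intervals and 387 were shoulders. Merging the intervals of the 3 DMSO samples in place of windows gave 7007 of 43080 intervals (16.3%) that overlapped no FHT-1015 interval, and merging those of the 3 FHT-1015 samples gave 1408 of 23071 (6.10%) that overlapped no DMSO interval.

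Lost regions were mostly distal. Whole-interval losses had a median distance of 35.8 kb to the nearest gene end, with 4.45% within 1 kb (Wilson 95% interval, counting error only, 3.96% to 4.99%). Shoulders had a median of 21.6 kb and 17.0% within 1 kb, and all lost regions together a median of 31.7 kb and 8.38% within 1 kb. Kept regions had a median of 0.557 kb and 61.8% within 1 kb, and regions called in any RD sample 39.1 kb and 6.81%. By this share the lost regions lay closer to all regions called in RD than to the kept regions. The share inside a gene was 54.6% for lost, 45.4% for gained and 52.8% for kept regions.

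**Figure D2:**
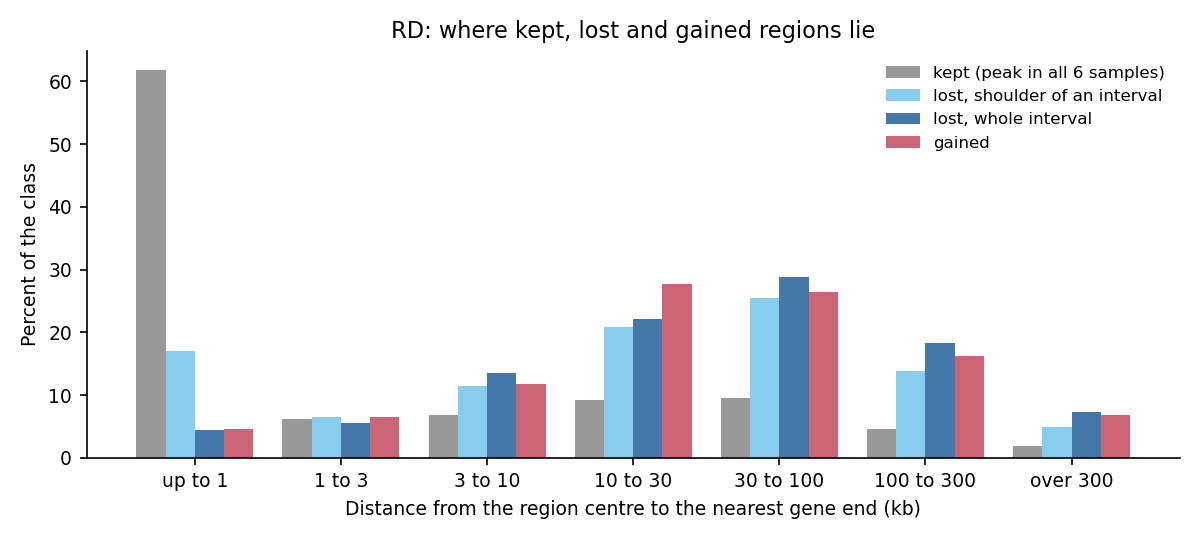
Percent of each class of RD regions (y axis, from 0) by distance from the region centre to the nearest end of a protein-coding gene in kb (x axis), for kept regions, shoulders, whole-interval losses and gained regions. Kept regions pile up within 1 kb (61.8%), while 4.45% of whole-interval losses and 4.60% of gained regions lie there.

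Distance and strength both went with loss. Of the 55840 regions, 35302 were distal and 23.1% of these were lost, against 3.63% of the 20538 at gene ends. Strength was taken as the mean percentile of −log10 p within the DMSO lists. From percentile 90 upwards, 3.12% of distal and 1.03% of gene-end regions were lost. Between percentiles 50 and 75 the shares were 36.2% and 19.6%. They were 15.1% and 5.57% between 75 and 90, and 45.8% and 36.2% between 25 and 50. Under percentile 25 the order was reversed, with 50.8% of 364 distal regions and 56.5% of 23 gene-end regions lost. The lower loss at gene ends was thus seen in 4 of the 5 bands of strength. Since peaks of the lists are lenient, a loss among strict peaks was counted too: 6537 of 29582 regions strict in all 3 DMSO samples (22.1%) were strict in 0 FHT-1015 samples, while 948 (3.20%) had no FHT-1015 peak at all and 272 of these (0.919%) were whole-interval losses.

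At the MYOD1 locus, the gene (chr11:17719571-17722136) with 100 kb on each side held 13 regions called in all 3 DMSO samples, of which 3 were lost and 6 kept. A whole-interval loss lay 19.9 kb to the left of the gene (chr11:17699399-17699898), with −log10 p of 15.6, 7.96 and 8.98 in the DMSO lists and no peak in the 3 FHT-1015 lists. All such p-values are the authors' own for each list and are given as a description. A region 30.9 kb to the left (chr11:17688397-17688896) was a shoulder of an interval with 17.1, 20.6 and 13.3, beside a region that kept a peak in all 6 samples. The third, 67.4 kb to the right of the left end of MYOD1 and nearest to SERGEF, had 6.01, 4.93 and 6.26 and no FHT-1015 peak. The gene-end region of MYOD1 itself kept a peak in all 6 samples, with 24.2, 30.9 and 20.9 in the DMSO lists and 7.31, 10.3 and 11.2 in the FHT-1015 lists.

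At MYOG (chr1:203083129-203086012) 5 of 21 regions were lost, 2 of them whole intervals, and 6 were kept. Each of the 5 was nearest to another gene, and MYOG was the nearest gene of 0 lost regions. The region at its start had −log10 p of 20.5, 17.7 and 12.2 in the DMSO lists, no peak in FHT-1015 replicate 1, and 3.63 and 10.5 in replicates 2 and 3. At this gene end a strict peak was thus present in 3 of 3 DMSO samples and 1 of 3 FHT-1015 samples. A region 6.75 kb from the left end of the gene kept a peak in all 6 samples. Of the strict regions, 4 of 11 at MYOG and 4 of 9 at MYOD1 were strict in no FHT-1015 sample, against 22.1% of all strict regions.

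Among the muscle structure genes, the DES locus is given in detail. DES encodes desmin, the intermediate filament of muscle, and lies next to SPEG, a kinase of striated muscle. Of 23 regions at the DES locus 4 were lost, and the strongest whole-interval loss (chr2:219439456-219439955, inside SPEG) had −log10 p of 28.4, 22.4 and 21.6 in the DMSO lists and no peak in the 3 FHT-1015 lists. A second one inside SPEG (chr2:219445259-219445758) had 15.4, 11.5 and 11.6 and none. A peak in 1 of the 6 other lines was seen in DMSO at each of these. The regions 30.5 kb to the left and 79.6 kb to the right of the left end of DES kept peaks in all 6 samples, and both had a DMSO peak in all 6 other lines. The locus also held 2 gained regions. Among them was a whole interval inside SPEG (chr2:219459367-219459866) with −log10 p of 4.51, 4.02 and 12.3 in the FHT-1015 lists.

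**Figure D3:**
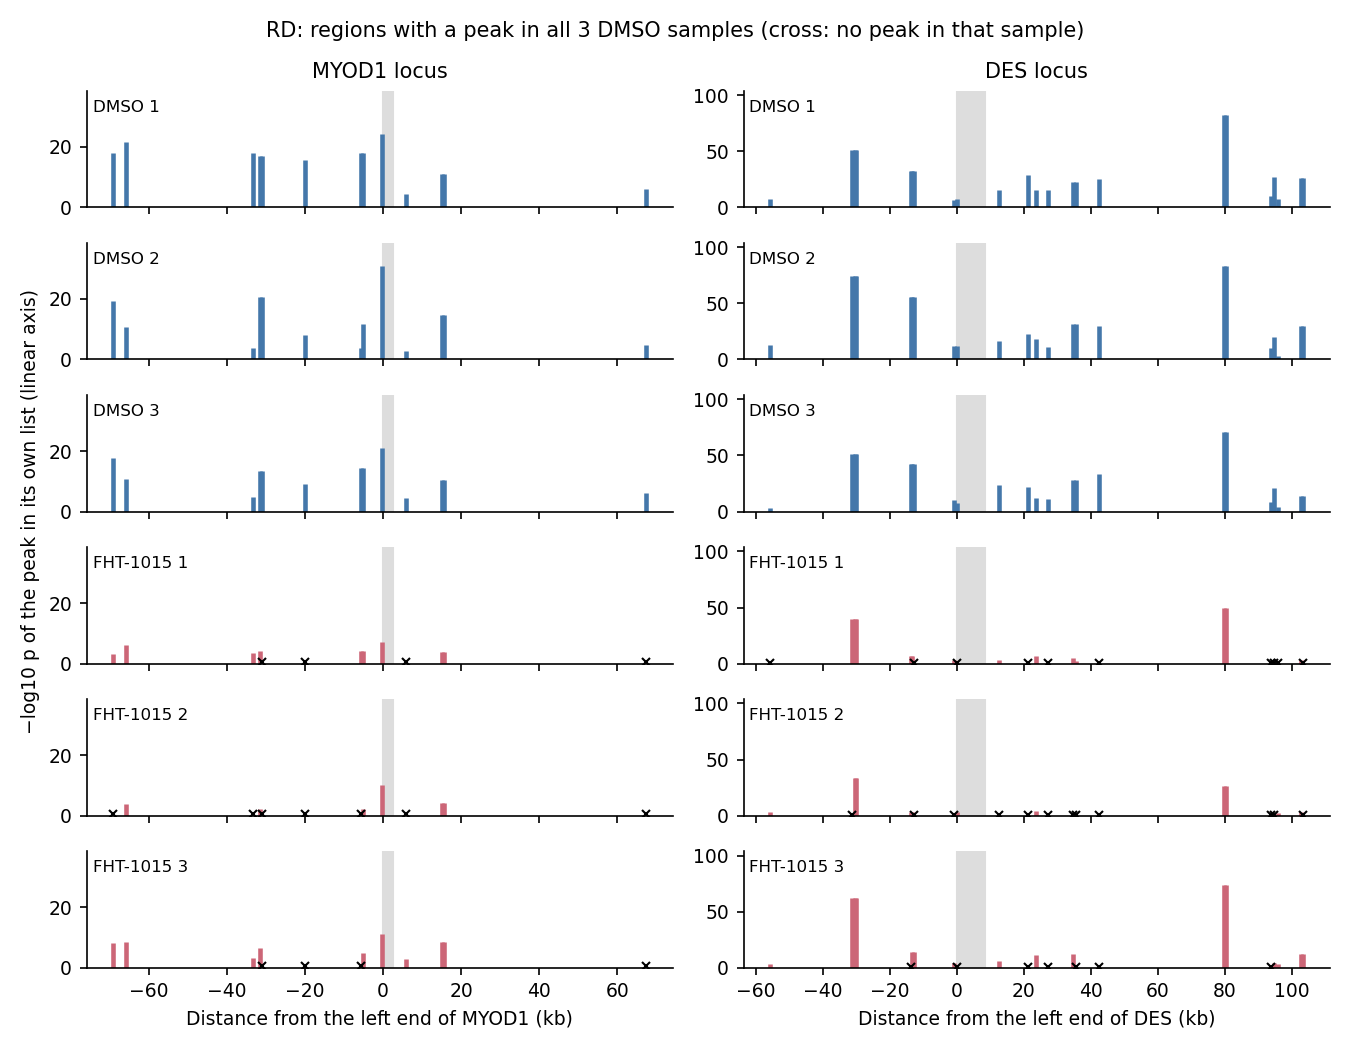
Regions with a peak in all 3 DMSO samples at the MYOD1 and DES loci, by distance from the left end of the gene in kb (x axis; grey marks the gene), with the −log10 p of the peak in its own list (y axis, linear, from 0) in each of the 6 RD samples; a cross marks a region with no peak in that sample. Crosses in all 3 FHT-1015 panels mark lost regions, 3 at MYOD1 and 4 at DES; bars are the authors' values and are not compared in height across lists.

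Of all 19974 protein-coding genes, 11575 (58.0%) had a lost region at their locus. Of the 20 muscle regulators 19 had one, and 40 of 251 regions (15.9%) were lost, 28 of them as whole intervals. The genes with most were MYCN, a growth-promoting transcription factor (6 of 21 regions), MYOG (5 of 21) and, with 3 each, MYOD1 (of 13), SIX4, a homeobox factor of muscle precursors (of 14), and RUNX1, a runt-domain factor (of 12). Of the 28 muscle structure genes 23 (82.1%) had a lost region, beside 68.0% of the ribosomal protein genes and 83.3% of the AP-1 factors, and 51 of 349 (14.6%) were lost, 33 as whole intervals. TNNI1, the slow skeletal troponin I, had most, with 7 of 23. A tie at 4 followed: TNNT2, a troponin T whose locus overlaps that of TNNI1 (of 17), DES (of 23), TNNC1, a troponin C (of 12), MYMK, which drives the fusion of muscle cells (of 17), and DMD, the dystrophin gene (of 9, all 4 whole intervals). Lost regions at a locus can be nearest to another gene. MYOG, TNNI1, DES and TNNC1 were nearest to 0 lost regions, and SIX4, TNNT2 and MYMK to 1 each. MYOD1 was nearest to 2, RUNX1 and DMD to 5 each, and MYCN to 9. The loss of all calls at muscle loci was near that of all regions (15.9%). Among strict regions the shares were 39 of 118 (33.1%) for the regulators and 61 of 205 (29.8%) for the structure genes, beside 22.1% for all. Lists and background were not matched for place or strength, and 57.5% of all strict regions lay within 1 kb of a gene end.

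Other lists spread on both sides of the background. At loci of 23 YAP and TEAD targets, genes that respond to the Hippo pathway, 70 of 313 regions (22.4%) were lost, with 8 of 22 at PTPN14, a phosphatase that restrains YAP, and 7 of 16 at TGFB2, a growth factor. Their strict share was 43 of 134 (32.1%). At 20 mesenchymal factors 28 of 142 (19.7%) were lost, with 5 of 9 at FOXC1, a forkhead factor, and 4 of 9 at SOX9, all 4 of the latter shoulders. At 25 growth and signalling genes of this tumour 43 of 319 (13.5%) were lost, with 7 of 28 at ALK, a receptor tyrosine kinase, and 7 of 27 at IGF1R, the receptor of insulin-like growth factors. At 16 MAPK feedback genes 27 of 176 (15.3%) were lost, with 5 of 17 at EPHA2, a receptor, and 5 of 19 at SPRED2, an inhibitor of the pathway. At 12 AP-1 factors 20 of 181 (11.0%) were lost, with 6 of 18 at MAFK and 3 of 10 at FOSL2.

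Of the 9 lists plotted, BAF subunits and ribosomal proteins had the lowest shares. At 27 BAF subunit genes 33 regions were lost (8.80%), with 5 of 35 at ARID1B and 5 of 9 at DPF1, and at 25 ribosomal protein genes 29 of 306 (9.48%), with 5 of 15 at RPS3. Among strict regions their shares were 13.7% and 11.6%. At SMARCA4, which encodes one of the inhibited ATPases, 1 of 23 regions was lost and 12 were kept. The marker lists of other cell types held few regions: 6 of 37 were lost at melanocyte genes, 1 of 31 at prostate, 9 of 72 at epithelial, 7 of 54 at myeloid and 7 of 33 at neural genes. Among strict regions the counts were 2 of 26, 7 of 11, 4 of 29, 8 of 38 and 4 of 15. Whether other cell types had a part in any result was not tested.

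**Figure D4:**
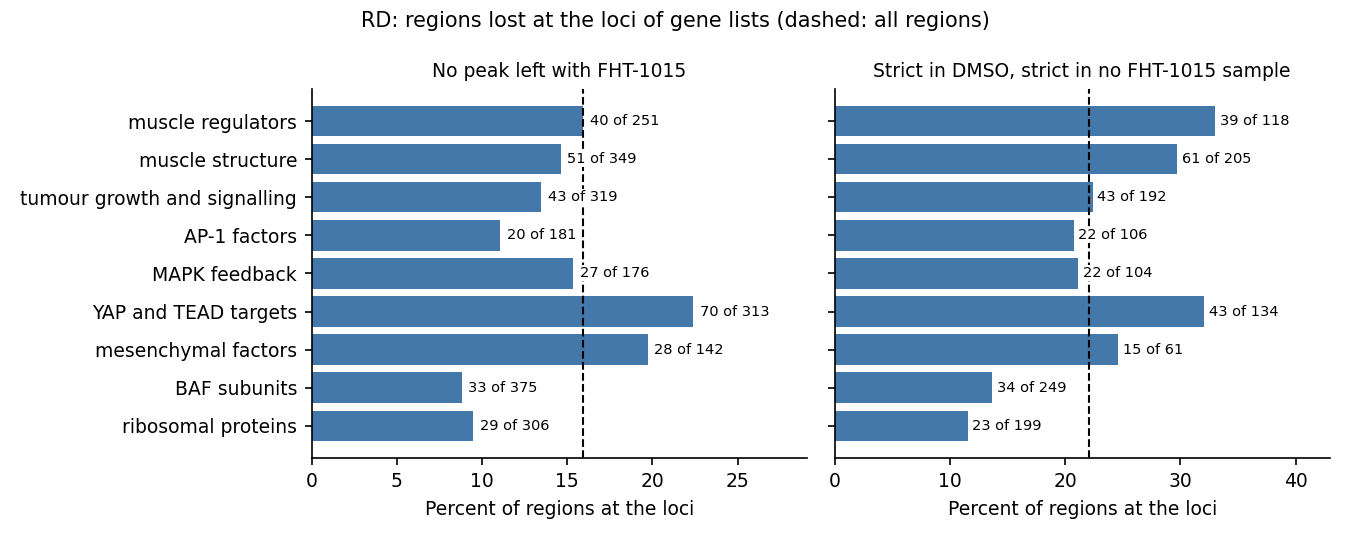
Percent of regions lost (x axis, from 0) at the loci of 9 gene lists (gene with 100 kb on each side), with counts beside the bars; the left panel uses all peaks and the right panel strict peaks, and the dashed line is the share over all regions (15.9% and 22.1%). Strict shares of both muscle lists and of the YAP and TEAD targets lie to the right of the line, and those of BAF subunits and ribosomal proteins to the left. Lists were not matched for place or strength, and the marker lists of other cell types are not plotted.

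Peaks at muscle loci also made up a smaller share of strict peaks after treatment. At the 48 muscle loci there were 500, 536 and 452 strict summits with DMSO and 175, 121 and 280 with FHT-1015, the latter mean being 38.7% of the former. As a share of all strict summits of the sample this was 1.11%, 1.10% and 1.08% with DMSO and 0.835%, 0.879% and 0.988% with FHT-1015, without overlap. The difference was −0.195 percentage points (exact permutation p = 0.1), and it was −0.259 among distal summits and −0.103 among summits at gene ends. Among the 10000 strongest peaks of each sample the difference was −0.0467 and the groups overlapped (exact permutation p = 0.6), and among peaks with q below 0.05 it was −0.0756 with overlap (exact permutation p = 0.4).

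In 5 of the other 6 lines the same share went the other way. It was higher in all 3 FHT-1015 samples than in all 3 DMSO samples of 22RV1 (means 0.717% and 0.658%), A375 (0.799% and 0.697%), DU4475 (0.921% and 0.844%), HCT116 (0.760% and 0.685%) and MV411 (0.609% and 0.561%). The RD difference was lower than that of these lines by 0.244 to 0.297 percentage points (exact permutation test of the difference over 400 assignments, two-sided, p = 0.005 for each, the smallest it can give, and adjusted p = 0.018 over 18 comparisons of 3 measures with 6 lines). This test shuffled treatment within both lines, so its null was no treatment effect in either line. It did not test whether the effects were equal. In 92-1 the groups overlapped, and the same test gave an exact permutation p of 0.48 (adjusted p = 0.617). The RD differences in the number of strict peaks and in the gene-end share passed the adjusted test against 0 of the 6 lines, the lowest unadjusted exact permutation p being 0.07 (number of strict peaks, HCT116).

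**Figure D5:**
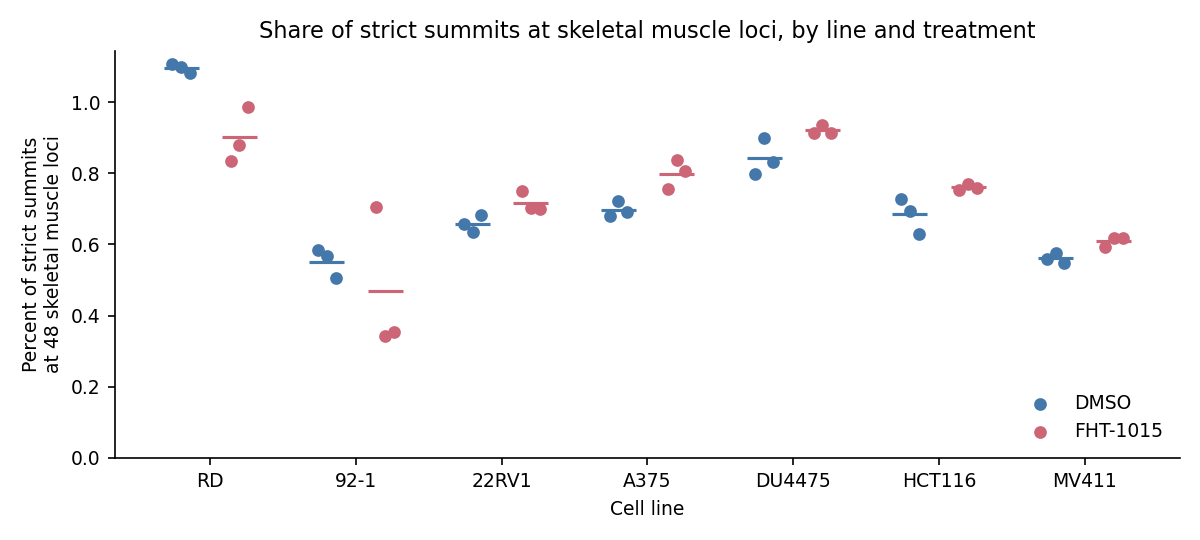
Percent of strict summits at the loci of 48 skeletal muscle genes (y axis, from 0) in each sample of the 7 lines (x axis), DMSO in blue and FHT-1015 in red; short lines are means of 3. RD has the highest DMSO values (1.08% to 1.11%) and lower FHT-1015 values, and in 22RV1, A375, DU4475, HCT116 and MV411 the FHT-1015 values lie above the DMSO values.

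The strongest lost regions were next examined. By rank in the DMSO lists, the 10 leading regions that were strict in 3 DMSO samples and had no FHT-1015 peak were all shoulders, 9 of them within 1 kb of a gene end. The leading one, 0.292 kb from SLC23A3, belonged to an interval with −log10 p of 114, 125 and 102, and the next lay at OGDH, an enzyme of the citric acid cycle (74.9, 102 and 87.2), and at ELAC2 (55.9, 87.9 and 76.5). The other 7 were nearest to C9orf85, C16orf46, GATAD2A, ZNF746, SLC35F5, SLC25A32 and TMEM43, and the tenth at a gene end was at RUNDC3B. Whole-interval losses of high rank, named here after their values were seen, included the SPEG region already described and one inside CEP170B (chr14:104881360-104881859) with 14.6, 33.8 and 25.4 in the DMSO lists. Neither overlapped a peak of an FHT-1015 sample, whereas each shoulder lay beside one.

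Whole-interval losses within 1 kb of a gene end, whether strict or not, numbered 272. Among those of highest rank were regions at PADI1, an enzyme that converts arginine to citrulline (23.5, 18.4 and 13.2 in the DMSO lists), PTGS1, a cyclooxygenase (15.3, 18.9 and 11.0), TAGLN, an actin-binding protein of smooth muscle (19.4, 11.0 and 8.65), MYL10, a myosin light chain (21.5, 7.57 and 11.6), and SOX2 (8.78, 11.2 and 13.2). These too were named after their values were seen. Of the 272, 119 lay nearer to the start of the gene, 82 nearer to its end, and 71 at a gene whose strand was not known. Of kept regions at gene ends 12588 lay nearer to the start and 276 nearer to the end.

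Nearest genes were counted for the lost regions. AUTS2, a neurodevelopmental gene, was nearest to 18 of the 8904, CDH4, a cadherin, to 16, SOX11, a transcription factor, and ZMIZ1, a transcriptional coregulator, to 13 each. BCOR, a subunit of a polycomb complex, JARID2, a polycomb cofactor, and TBL1XR1, a corepressor subunit, were nearest to 12 each. KLHL29, GLI2, a factor of Hedgehog signalling, and TNS1, a focal adhesion protein, were nearest to 11 each, as were GADD45G, NAV2 and NR2F2. Of regions called in all 3 DMSO samples, 67 were nearest to AUTS2, 32 to CDH4, 44 to SOX11 and 30 to ZMIZ1. There were 37 for BCOR, 29 for JARID2, 38 for TBL1XR1, 40 for KLHL29 and 40 for GLI2. TNS1 had 31, GADD45G 35, NAV2 37 and NR2F2 31. Over all such regions 15.9% were lost. The share was higher at each of these genes, which were picked for their counts of lost regions. At SOX11 the region at its left end kept a peak in all 6 samples, with −log10 p of 41.3, 37.6 and 42.7 in the DMSO lists and 40.7, 28.0 and 41.9 in the FHT-1015 lists.

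Gained regions were weak and few. Only 5 regions were strict in all 3 FHT-1015 samples with no DMSO peak (0.0390% of 12831), at LANCL1, OGA, CCT6A, RUNDC3B and FUNDC1, and 0 of them were whole intervals. The 10 gained regions of highest rank included 9 shoulders, led by a region 37.9 kb from LANCL1 (20.6, 12.4 and 42.6 in the FHT-1015 lists), OGA, which removes sugar marks from proteins (25.3, 12.4 and 25.1), and CCT6A, a chaperonin subunit (14.7, 10.6 and 49.6). The others were nearest to TRIB2, RUNDC3B, FUNDC1, CDK6, LMO4, IMMP2L and ABRAXAS2. Only the one near ABRAXAS2 was a whole interval (5.94, 8.78 and 5.0). At RUNDC3B the lost region named above (chr7:87627431-87627930) and the gained one (chr7:87628923-87629422) were shoulders on either side of the same gene start. Their distances to it were 0.717 and 0.775 kb. The median distance of gained regions to a gene end was 29.5 kb, and 4.60% lay within 1 kb.

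The gained share varied between chromosomes. It was 7.86% of regions called in all 3 FHT-1015 samples on chromosome 7, 6.90% on chromosome 20, 0.629% on chromosome 13 and 0.770% on chromosome X. The lost share ran from 7.95% on chromosome 19 to 19.1% on chromosome 18. The share of all deposited peaks on chromosome 7 was 7.85%, 8.64% and 8.43% in the DMSO lists and 9.27%, 9.76% and 8.67% in the FHT-1015 lists, and on chromosome X it was 1.69%, 1.53% and 1.40% against 1.05%, 1.05% and 1.3%. Neither share overlapped between the groups. The part of these list-wide shifts in the gained regions was not tested.

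Promoters that lost a peak as a whole interval differed in sequence from those that kept it. The motif search covered 22012 RefSeq promoter windows of 300 bases (250 before and 50 after the start) of 15712 of the 19974 protein-coding genes, on both strands. Of 12507 windows with a peak in all 3 DMSO samples, 268 (2.14%) were lost and 104 (0.832%) were lost as whole intervals, while 10485 were kept. CAGCTG was in 39 of the 104 (37.5%), in 16.2% of kept windows and in 18.0% of all windows. TGANTCA was in 19 of the 104 (18.3%), in 3.03% of kept and in 6.16% of all windows. Over all 268 lost windows, shoulders included, CAGCTG was in 31.3% and TGANTCA in 13.1%. CCGGAAG, a motif of ETS factors, was in 9.62% of the 104, 21.3% of kept and 12.8% of all windows. For GGGGCGGGG, a GC box, the shares in the same order were 23.1%, 31.0% and 20.6%.

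The remaining 4 motifs, which mark other E-box proteins, TEAD, RUNX and MEF2 factors, were CACCTG (19.2% of the 104, 16.4% of kept and 4402 of all 22012 windows), GGAATG (9.62%, 9.74% and, of all, 12.2%) and TGTGGT (16.3%, 7.83% and 11.3%), and the MEF2 motif, which was in 1 of the 104 (0.172% of kept and 0.318% of all). In windows with no peak in RD, TGTGGT was in 15.7%, CAGCTG in 18.2% and TGANTCA in 9.62%. Base composition differed as well: the median number of CpG dinucleotides was 13 in the 104 windows and 29 in kept windows, and the median GC content 61.8% and 67.3%. Over all 268 lost windows the median number of CpG was 20, and TGTGGT was in 10.1%. The classes were not matched for peak strength. A motif match is a description of the letters, and promoters are not replicates, so no test was made. Sequence of distal regions, which hold most of the losses, was not used here.

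The RD lost regions were looked up in the other 6 lines, whose calls had no part in choosing them, although the windows were placed with the lists of all lines. In DMSO, 13.9% of distal lost regions had a peak in none of the other lines and 4.23% in all 6. For kept distal regions the shares were 4.10% and 36.8%. For all gained regions, gene ends included, they were 13.4% and 1.71%. The classes were not matched for strength. By line, 17.9% (HCT116) to 30.5% (A375) of the RD lost regions were called per DMSO sample on average, and 61.0% (92-1) to 83.7% (A375) of the RD kept regions. In each of the 6 lines the share was lower for lost than for kept regions.

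In the other lines, too, fewer RD lost regions were called with FHT-1015 than with DMSO. The mean percentages per sample were 26.4% ± 4.69 and 11.1% ± 4.88 in 92-1, 23.5% ± 1.93 and 21.5% ± 1.36 in 22RV1, and 30.5% ± 4.38 and 24.1% ± 5.77 in A375 (SD, n = 3 each). They were 23.9% ± 1.86 and 21.7% ± 2.34 in DU4475, 17.9% ± 3.02 and 14.8% ± 2.82 in HCT116, and 22.8% ± 1.87 and 16.0% ± 0.146 in MV411 (SD, n = 3 each). The groups were separate in 92-1 and MV411 and overlapped in the other 4 lines. The mean difference over the 6 lines was 5.96 percentage points (permutation test within lines, 100000 draws, two-sided, p = 1e-04). Without 92-1 it was 4.11 (permutation p = 0.00089). For RD kept regions the means were 61.0% with DMSO and 43.0% with FHT-1015 in 92-1, 65.9% and 62.0% in MV411, and 61.1% and 61.4% in HCT116. With the difference over kept regions subtracted, an alternative chosen after seeing the data, 1.80 percentage points remained (permutation p = 0.17).

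Regions lost in RD were seldom lost by the same rule elsewhere. Of the 8904, 8002 were lost in 0 other lines, 833 in 1, 68 in 2 and 1 in 3. The largest overlap was with 92-1, where 363 regions were lost in both, 4.08% of those of RD and 2.26% of those of 92-1. MV411 shared 231 (2.59% and 1.09%), 22RV1 134 (1.5% and 1.04%) and A375 134 (1.5% and 2.29%). Of the RD lost regions that could be lost in 92-1, being called in its 3 DMSO samples, 41.3% were lost there, beside 35.1% of the regions that could be lost there at all. The shares were 13.4% and 18.0% in 22RV1, 8.08% and 9.02% in A375, 4.50% and 6.44% in DU4475, 9.01% and 6.42% in HCT116, and 16.2% and 19.7% in MV411. Against the background of each line the share was thus higher in 92-1 and HCT116 and lower in the other 4 lines. Of RD kept regions that could be lost, 5.02% were lost in 92-1, 1.52% in 22RV1, 0.382% in A375, 0.334% in DU4475, 0.608% in HCT116 and 1.73% in MV411, below the share of RD lost regions in each of the 6 lines. Kept and lost regions were not matched for place or strength. Within 1 kb of a gene end lay 61.8% of kept and 8.38% of lost regions. Their median DMSO fold in RD was 7.93 and 3.69.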

How the data were processed

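ATAC-seq peaks were called per sample, not on pooled samples, as the deposited lists show. The submitters' processing notes name Bowtie2, Picard, MACS2, limma and HOMER and the build hg38; versions and settings are given in none of the sources used here. The deposited lists give for each peak a fold enrichment (a linear ratio), a −log10 p-value and a −log10 q-value, all made by the authors; read counts were not used here, so depth was read from the background pileup that fold and p imply, to a tolerance of 0.01. Protocols in the labels describe bead size selection on both sides, which can shape fragment lengths.

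Regions were windows of 500 bp around summits over all 42 lists on chromosomes 1 to 22 and X, called in a sample at an overlap of at least 100 bp. Distances used RefSeq GRCh38.p14, which gave 19974 protein-coding genes; sequences came from its promoter table. A locus was the gene with 100 kb on each side. Groups were compared over samples by exact permutation; RD and the other lines by permuting treatment within lines. The labels call the replicates biological and say nothing of separate cultures, so p-values measure the spread between these samples. Scripts (Python 3.11.15, numpy 2.4.6, scipy 1.17.1, pandas 2.3.3, numba 0.67.0) were tested on simulated data.

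The members and gene lists were chosen with earlier results of these data known. Named were MYOD1 and MYOG, up to 4 genes per list with most lost regions, the 10 strong lost, 10 gene-end lost and 10 gained regions of highest rank, and the 10 genes nearest to most lost regions; exceptions are said where they occur. Alternatives covered the peak threshold, thinning to a common background, overlap, distance and locus size, window set, the replicate block and each replicate left out. Same-numbered samples were treated as pairs only in the replicate block, and whether they were handled together is not known here. One lost region of high rank is not reported here.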

Additional observations from a re-analysis of the deposited data

Results flagged for a closer look

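The FHT-1015 minus DMSO difference in the share of strict summits at the 48 muscle loci was lower in RD than in 5 other lines. The test shuffled treatment within both lines, so its null was no treatment effect in either, and it did not test equal effects. RD minus the other line was −0.254 percentage points for 22RV1, −0.297 for A375, −0.272 for DU4475, −0.271 for HCT116 and −0.244 for MV411. Each had an exact permutation p of 0.005, the smallest that 400 assignments can give, and an adjusted p of 0.018 over 18 comparisons. The share was lower in 3 of 3 treated RD samples than in any DMSO sample of RD, and higher in 3 of 3 treated samples of each of the 5 lines. With the 10000 strongest peaks of each sample, the RD difference was −0.0467 and the RD groups overlapped (exact permutation p = 0.6).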

How the results depend on the processing

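The number of strict peaks, the gene-end share and the muscle share kept their direction under every alternative run, with overlapping groups where the report says so. Leaving out each replicate gave −1.41 to −0.89 for the log2 number, 17.5 to 23.3 percentage points and −0.238 to −0.162 percentage points. With the replicate block the number differed by −1.16 (exact sign-flip permutation p = 0.25, the smallest 3 pairs allow); same-numbered samples did not deviate together, with correlations of −0.0035, −0.0016 and −0.0151.

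The number of lost regions (8904) was 948 when strict DMSO regions had to lose every FHT-1015 peak, 4723 after thinning, of which 530 were among the 8904, and 10748 to 18813 with 1 replicate left out. Thinning also kept only peaks with −log10 p of at least 5, whereas the main rule used all deposited peaks. Depth and cut thus changed together in the thinned values of this paragraph, as in the other thinned values of the report. At an overlap of 250 bp 3586 of 6865 were among the 8904, and among strict peaks 948 of 6537. The number was 16779, 18019 and 18813 without DMSO replicates 1, 2 and 3 and 15374 without FHT-1015 replicate 3. The number of gained regions (1347) was 9 among strict peaks, 5 with no DMSO peak at all, 11 after thinning (2 shared), 292 at an overlap of 250 bp (123 shared), and 1794 to 9135 with 1 replicate left out, of which 6589, 9135 and 7127 without FHT-1015 replicates 1, 2 and 3. Fewer samples have to meet the rule when one is left out. The percentage of lost regions within 1 kb (8.38%) was 21.2% among strict peaks, 24.1% for strict regions with no FHT-1015 peak, 29.7% after thinning, 11.5% at 250 bp, 6.82% with windows from RD alone, 4.45% for whole intervals, 4.27% for merged intervals, 4.23% within 500 bp, 18.1% within 5 kb, and 6.28% to 10.4% with 1 replicate left out. The cause of these shifts was not tested.

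The difference of RD lost regions in the other lines (5.96 percentage points) was 1.80 with kept regions subtracted (permutation p = 0.17), and 4.11 to 6.75 with 1 line left out. Thinning, the merged and whole-interval counts and the subtraction of kept regions were in part chosen after seeing the data. Depth is known only through the background pileup, which limits what a missing peak shows: a region without a peak can still be accessible.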
